A study of Mus musculus with 3 samples.

Results

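Luminal-like epithelial cells of the developing mouse prostate were described from a single cell RNA-seq table of urogenital and prostate tissue. The members were chosen by these measured values. A member was a cell with a UMI (unique molecular identifier, 1 counted RNA molecule) for at least 3 of the 5 genes Cldn3, Tspan1, Wfdc3, Cyp2f2 and Cxcl17. In addition, the mean of the deposited values of these 5 genes had to be at least the mean of 5 basal genes (Lgals7, Sfn, Serpinb5, Lamb3, Dst). A cell with 3 or more of 6 genes of superficial urothelium (Upk3b, Ivl, Sprr2f, Wfdc15b, Folr1, Ctse) was left out. In all, 472 of 14573 cells met the rule. The 16 genes of the rule selected the cells, so their values are a description.

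The study profiled the urogenital sinus (UGS) of male embryos, in which prostate buds form, at E18.5, and prostate of the ages P14 and P35, with 1 library for each age. The labels call the tissue normal and give no genotype, and the study's methods name mGFP and hARtg sequences added to the reference. Barcodes in the table end in 1, 2 or 3, here called sets 1 to 3, and no label ties a set to an age. Values are therefore given for each set, and no difference between sets is read as a difference between ages.

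Luminal cells line the lumen of the prostatic ducts, make the secretion of the gland and depend on androgens for that task, while basal cells sit beneath them on the basement membrane. Claudins such as Cldn3 seal the junctions between neighbouring luminal cells. Secreted proteins of the WAP family (Wfdc2, Wfdc3), defensins (Defb1) and chemokines (Cxcl17) belong to the defence of such mucosal surfaces. Luminal cells near the urethra and luminal cells of the distal ducts are known to differ in the genes they express.

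Set 1 was small and deep, with 766 cells and 19357 UMIs in the median cell. Sets 2 and 3 were larger and shallower, at 5350 and 8457 cells and medians of 1738 and 1788 UMIs. A single barcode occurred in sets 1 and 2, 13 occurred in sets 2 and 3, and 0 in sets 1 and 3. The rows analysed here held 52.7%, 50.4% and 49.4% of the UMIs of the 3 sets. Genes without a row were not analysed here, among them the 5 cytokeratins fixed as luminal markers and the 5 seminal vesicle and urethral gland markers, so the label was not checked against them.

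The rule found 3 luminal-like cells in set 1, 83 in set 2 and 386 in set 3. These were 0.392% of the cells in set 1 (95% exact Clopper-Pearson interval 0.0808 to 1.14), 1.55% in set 2 (1.24 to 1.92) and 4.56% in set 3 (4.13 to 5.03). Of the cells that the rules called luminal-like, basal-like or superficial-like, luminal-like cells made up 2.21% in set 1, 7.22% in set 2 and 16% in set 3. With 1 library per set these intervals cover counting error only. Luminal-like cells were deep for their sets, with a median of 8835 UMIs in set 2 and 8787.5 in set 3. Basal-like cells had 4872 and 3581, and fibroblast-like cells 1564 and 1541. With each cell thinned to 900 UMIs before the rule was applied, the share was 0.240% in set 2 and 0.991% in set 3, so the shares at full depth move with depth.

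In set 2, 48 members had 3 of the 5 genes, 35 had 4 and 0 had all 5. In set 3 these numbers were 205, 174 and 7. Just outside the rule, 76 cells of set 2 and 205 cells of set 3 had 2 of the genes and met the other conditions. Their median of the mean deposited value was 0.813 in set 2 and 0.807 in set 3, against 1.05 and 1.07 for members with 3 genes, and their median depths were 3078 and 5004 UMIs against 7269.5 and 7212. The basal condition alone left out 62 cells of set 2 and 130 of set 3, and the smallest margin of a member over the basal mean was 0.00443, in set 3. At least 3 of the 5 basal genes had a UMI in 38 members of set 2 and 145 of set 3.

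The 3 cells of set 1 went against the label in part. They held 32362, 39007 and 92586 UMIs, 0 UMIs of Wfdc3 and at most 1 UMI of Cxcl17. In set 2, too, Wfdc3 had a UMI in only 4 of 83 members, and Cxcl17 in 45. In the 3 cells Cldn3 had 66, 32 and 63 UMIs, Wfdc2 had 82, 25 and 86, and Elf3 had 85, 53 and 59. Upk1a, a uroplakin of the urothelial surface, had 37, 15 and 85 UMIs in these 3 cells. Sprr1a, a protein of the cornified envelope, had 168, 131 and 526 in them. Each carried 1 or 2 of the 6 superficial genes. They are called the 3 cells of set 1 here, and the results that follow are from sets 2 and 3.

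The genes of the rule were spread unevenly over the members. Rates are summed UMIs scaled to 1000000 UMIs of the cells (CPM), with 95% exact Poisson intervals. Tspan1, a tetraspanin, was at 925 (857 to 998) in set 2 and 707 (682 to 733) in set 3, against 106 and 138 in basal-like cells. Cldn3 was at 649 (592 to 710) and 463 (443 to 484), against 109 and 109. Both genes had a UMI in nearly every member, Tspan1 in 83 of 83 cells and 384 of 386, and Cldn3 in 82 and 375. In fibroblast-like cells, which should lack them, 1.80% of cells in set 2 and 0.754% in set 3 had a UMI of Tspan1.

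Cyp2f2, a cytochrome P450 of airway and gland epithelium, was at 213 (181 to 249) in set 2 and 337 (320 to 355) in set 3. Cxcl17, a mucosal chemokine, was at 206 (174 to 241) and 141 (130 to 153). These 2 genes had a UMI in 84.3% and 54.2% of the members of set 2, and in 66.8% and 44.6% of those of set 3. Wfdc3, a secreted WAP-domain protein, had unlike values in the 2 sets. It had 5 UMIs in 4 of the 83 members of set 2, a rate of 6.81 (2.21 to 15.9), and 1532 UMIs in 157 of the 386 members of set 3, a rate of 355 (337 to 373). The 2 groups of members had nearly the same median depth. With every cell thinned to 900 UMIs, Wfdc3 was seen in 0 of 83 cells of set 2, which allows a share of cells with a UMI of up to 4.35% (exact upper limit; 3.61% by a floor of 3 counts), and in 65 of 385 cells of set 3, or 16.9% (13.3 to 21). At the same depth 0.253% of basal-like and 0.285% of fibroblast-like cells of set 3 had a UMI of Wfdc3. With 1 library per set, this difference was not tested.

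**Figure D1:**
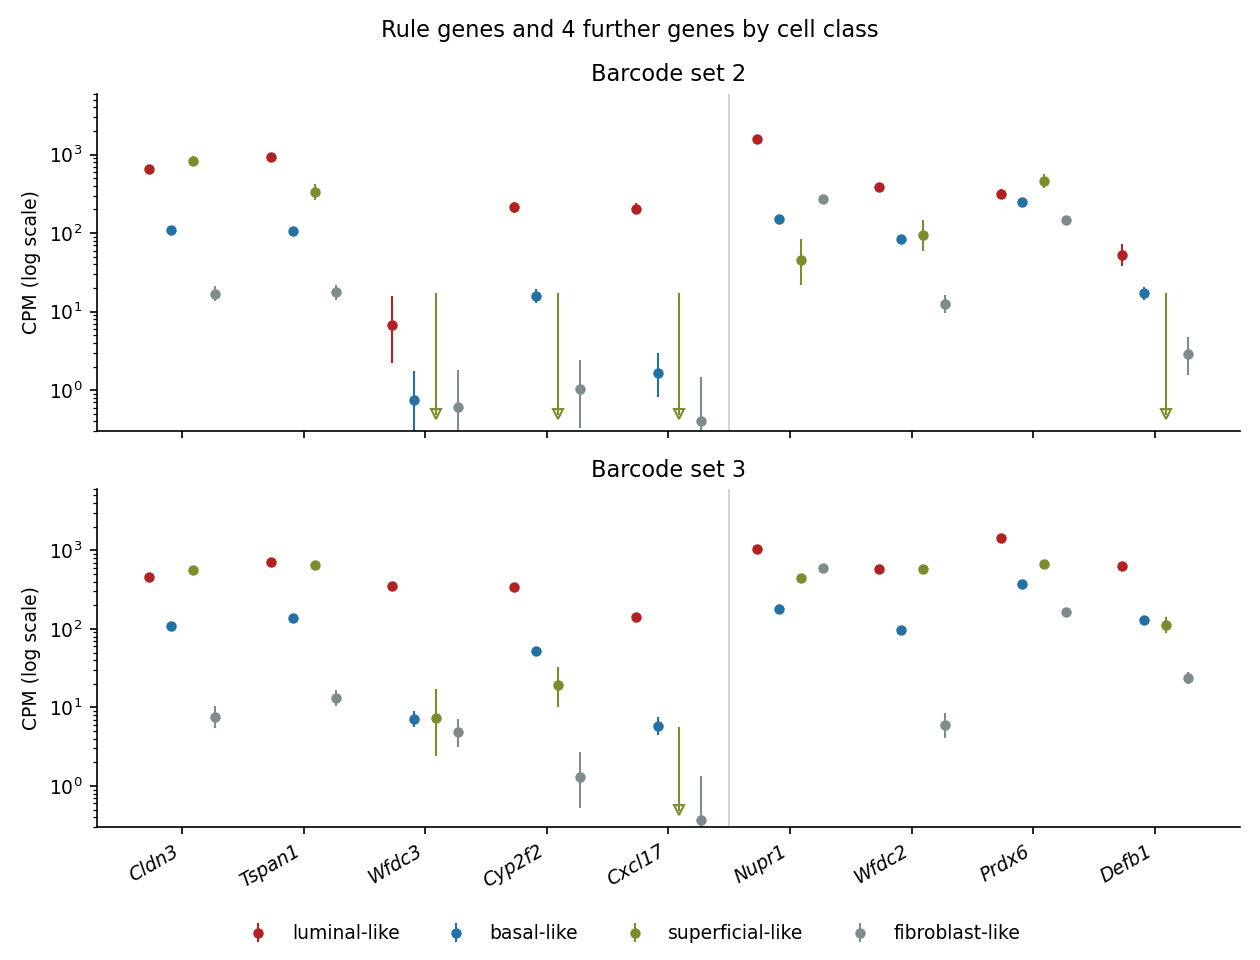
Summed CPM (log axis) of the 5 luminal genes of the rule and of 4 further genes in luminal-like, basal-like, superficial-like and fibroblast-like cells of sets 2 and 3. Bars are 95% exact Poisson intervals, and open triangles with a line mark genes at 0 and the upper limit; Wfdc3 in luminal-like cells was at 6.81 in set 2 and at 355 in set 3.

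The highest rates among luminal-like cells belonged to the ribosome, with 18 ribosomal protein genes among the 20 genes of highest rate in each set. The others were Tmsb4x and Actb, which act in the actin cytoskeleton.

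Luminal-like cells were next compared with basal-like cells of the same set, the neighbouring layer of the duct, to see which genes outside the rule went with it. The rule itself compares these layers, and cells of 1 library are not replicates, so the values are descriptions with counting intervals and no test was made. A gene entered with 30 UMIs or more over both classes, and a 2-fold ratio of rates was the limit. In set 2, 392 of 5349 genes were higher in luminal-like cells (7.33%) and 595 lower (11.1%). In set 3, 501 of 6148 were higher (8.15%) and 748 lower (12.2%). With members chosen at 900 UMIs the balance turned, to 208 higher and 185 lower in set 2 and 534 and 444 in set 3, while sums thinned to 900 UMIs gave 175 and 225, and 316 and 427, so no lean to a side is read from these counts. Of the 5285 genes measured in both sets, 169 were higher in both and 304 lower in both. The 169 were 43.6% of those higher in set 2 and 51.4% of those higher in set 3. The median log2 ratio of all genes was -0.12 in set 2 and -0.01 in set 3.

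Of the genes higher in both sets, ranked by the smaller of the 2 ratios, the first 20 are given here. Pglyrp1, a protein that binds bacterial peptidoglycan, ranked first, with log2 ratios of 2.74 in set 2 (2.17 to 3.31) and 2.85 in set 3 (2.33 to 3.39). Nupr1, a small stress-induced nuclear protein, had 1166 UMIs in set 2 and 4498 in set 3, with log2 ratios of 3.39 (3.27 to 3.52) and 2.53 (2.46 to 2.61). Wfdc2, a secreted WAP-domain protein, followed at 2.20 and 2.56. The detoxifying enzymes Cyp2b10 (4.07 and 2.38) and Ugt2b34 (3.52 and 2.37) were on the list as well.

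Lrrc26, a subunit of potassium channels in secretory epithelium, was at 4.06 and 2.59 on the log2 scale. The metal ion importer Slc39a8 was at 3.1 and 2.23, the ATP-gated channel P2rx2 at 2.99 and 2.25, the tetraspanin Tspan8 at 2.71 and 2.28, and the cell surface peptidase Mme at 2.06 and 2.32. The others were 5330417C22Rik, Arl14, Mansc1, Bcl2l14, Crym, Tstd1, Rap1gap, 9130230L23Rik, Pgap2 and 2010300C02Rik, with log2 ratios from 2.01 to 4.06.

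The 20 genes that were lowest against basal-like cells in both sets were ranked in the same way. Sums under 3 UMIs were set at 3 for the ratios, so the ratio of such a gene depends on that floor. Aqp3, a water and glycerol channel of basal cells, had log2 ratios of -3.68 (-5.13 to -2.55) in set 2 and -4.19 in set 3, from 6 UMIs against 699 and 52 against 2405. Nrg1, a ligand of ErbB receptors, was at -3.42 and -2.66, and Ccnd2, a cyclin of the G1 phase, at -3.03 and -3.1. Pdpn was at -2.97 and -5.60, Col18a1, a basement membrane collagen, at -3.04 and -4.64, and Fscn1, an actin bundler, at -3.91 and -3.32. Axl, Pltp, Hmga2, Phlda3, Apoe, Fmod, Wif1, Moxd1, Cp, Gm13889, Fbln2 and Sprr2a3 were also on the list, with log2 ratios between -2.64 and -4.88. In set 2 the sums of Wif1, Moxd1, Fbln2, Sprr2a3 and Gm13889 were 2, 1, 1, 4 and 6 UMIs. There the first 3 of these turned to the other direction with sums thinned to 900 UMIs and with members chosen at 900 UMIs. Sprr2a3 turned with thinned sums (0.15) and Gm13889 with members chosen at 900 UMIs (0.69). These turns rest on few UMIs and that floor, and are not read as higher rates.

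Hbb-bs, a globin of red blood cells, had 0 UMIs in luminal-like cells of set 2 and 3 in set 3, against 514 and 995 in basal-like cells. Markers of other cells moved with the comparison. The 5 fibroblast markers summed to 534 CPM in luminal-like and 1902 in basal-like cells of set 2, and to 167 and 1497 in set 3. For the 4 smooth muscle markers the sums were 570 and 2220, and 216 and 1184. Cells with 3 or more markers of either list were 22.9% of luminal-like and 36.8% of basal-like cells in set 2, and 6.74% and 16.1% in set 3. Without such cells in either class, 327 genes were higher and 475 lower in set 2, and 492 and 523 in set 3. Hbb-bs then no longer stood lower in set 2, where its luminal-like sum was set at the floor, and had a log2 ratio of 0.69.

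The other genes are given by 11 lists of function, each by its counts beside the shares of all genes above. Of 16 genes of secretion and host defence with a row, 10 were measured in set 2 and 12 in set 3. Higher by 2-fold were 4 and 5 of them, and 0 and 1 were lower, with a median log2 ratio of 0.50 and 0.58. The summed rate of the list was 3488 against 3415 in set 2, nearly equal, and 4051 against 3116 in set 3. Wfdc2, Defb1 and Car2 were higher in both sets. Defb1, a beta-defensin, was at 53.1 CPM (37.8 to 72.6) in luminal-like cells of set 2 against 17.0 in basal-like cells, and at 629 (605 to 653) against 129 in set 3. Car2, a carbonic anhydrase, was at 181 against 36.9, and at 121 against 42.5. Pigr, the receptor that carries IgA into secretions, had 7 UMIs in luminal-like cells of set 2 and 0 in basal-like cells, and in set 3 was at 84.3 against 6.03. The antibacterial lectin Reg3g was at 5.45 against 3.74 in set 2 and at 55.4 against 11.7 in set 3. Lyz2, a lysozyme of macrophages, was lower in set 3, at 1.62 against 6.67.

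The machinery that loads and folds secreted proteins in the endoplasmic reticulum leaned higher by its median and summed rate, and not by its count past 2-fold. All 30 genes of this list with a row were measured in both sets. Of these, 3 were 2-fold higher in set 2 and 4 in set 3, near the 7.33% and 8.15% of all genes, and 0 were lower. Their median log2 ratio was 0.39 in set 2 and 0.51 in set 3, against -0.12 and -0.01 for all genes. Summed over the list, the rate was 8240 against 6223 in set 2, and 7341 against 5121 in set 3. Sec61b, a part of the translocation channel, was at 664 against 314 and at 571 against 251. Ssr4, which sits beside that channel, was at 864 against 388 and at 920 against 414.

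Junction genes leaned the same way and adhesion to the basement membrane the other way. Of the tight junction and polarity genes, 4 of 16 in set 2 and 5 of 17 in set 3 were higher and 1 was lower in each, the desmosomal gene Pkp1. Prom1, a protein of apical membrane protrusions, was higher in both, at 24.5 against 12 and at 83.6 against 24.8. Of the 9 genes of hemidesmosomes and basal adhesion that were measured, 0 were higher in either set, and 4 in set 2 and 3 in set 3 were lower. Cav1, the coat protein of caveolae, was at 38.2 against 223 in set 2 and 24.1 against 98.2 in set 3. Cdh3, the cadherin of basal cells, had 2 UMIs in luminal-like cells of set 2 and 5 in set 3. It is 1 of the 4 genes lower in set 2, and there its log2 ratio turned, to 1.22 with members chosen at 900 UMIs and 0.99 with thinned sums. Sums under 3 UMIs were set at 3, so this turn is not read as a higher rate. Itga6, the integrin that anchors epithelium to laminin, was lower by less than 2-fold, at 195 against 375 and 228 against 404.

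Transcription factors of epithelium were mixed. Of 27 measured in each set, 3 were higher in set 2 and 3 in set 3, and 9 and 5 were lower. The ETS factor Ehf was higher in both sets, at 198 CPM against 85.3 and at 134 against 65.8. Elf3, another ETS factor of differentiated epithelium, was at 40.9 against 20.8 and at 55.1 against 25.4. Gata3 was at 83.1 against 39.1 and at 176 against 99.6. Id1, Id3, Tcf7l1 and Hey1 were lower in both sets. Without the cells that carry stromal markers, none of the 3 genes higher in set 3 (Elf3, Ehf and Elf5) was 2-fold higher there and Gata2 was, Ehf and Gata3 still were in set 2, Id1 and Id3 were still lower in both sets, Tcf7l1 was lower in set 2 alone and Hey1 in set 3 alone. Id1 and Id3 block other transcription factors from binding DNA, and Id1 was at 153 against 373 and at 162 against 633.

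Enzymes that handle xenobiotics and steroids were higher for 8 of 27 genes in set 2 and 5 of 29 in set 3, and lower for 1 and 3. Cyp2b10, the glutathione transferase Gstt3 and the alcohol dehydrogenase Adh1 were higher in both. Gstt3 was at 92.7 against 17.6 and at 47.7 against 14. Fmo1, a flavin monooxygenase, was the single gene of those measured in both sets that was 2-fold higher in set 2 (34.1 against 7.62) and 2-fold lower in set 3 (6.95 against 14.3). It was at 57.3 in fibroblast-like cells of set 3, and without the cells that carry stromal markers it was not 2-fold lower there.

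The androgen response list did not lean to a side. Of 24 genes measured in set 2, 3 were higher and 5 lower, and of 26 in set 3, 4 and 4, with a median log2 ratio of -0.10 and 0.07. Slc45a3, a sugar transporter known from prostate, was at 51.8 against 11.4 and at 24.8 against 11.3. Mme was at 98.1 against 23.5 and at 175 against 35.2. Pmepa1, which is also a target of TGF-beta, was lower in both sets, at 158 against 481 and at 258 against 606.

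Genes linked to proximal and progenitor luminal cells were higher for 4 of 14 in set 2 and 5 of 15 in set 3, and lower for 1 and 2. Wfdc2, Prom1 and Tspan8 were higher in both. Aldh1a3, an enzyme that makes retinoic acid, was at 143 against 108 in set 2 and at 101 against 42.6 in set 3. Sox2 had 4 UMIs in luminal-like cells of set 2 and was at 10.9 against 17.4 in set 3. It is the 1 gene of this list lower in set 2, and there its log2 ratio turned, to 1.22 with members chosen at 900 UMIs and 1.33 with thinned sums. Thinned to 900 UMIs, 0 of 83 luminal-like cells had a UMI of Sox2. Sums under 3 UMIs were set at 3, so this turn is not read as a higher rate.

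Genes of the IGF and Wnt pathways leaned lower. Of 22 measured in set 2, 0 were higher and 10 lower, and of 21 in set 3, 1 was higher and 11 lower, with a median log2 ratio of -0.91 and -1.06. The receptor Igf1r, which carries the IGF signal, differed by less than 2-fold, at 87.2 against 78.4 and at 77.8 against 65.6. The ligand Igf1 had 2 UMIs in luminal-like cells of set 2 and 12 in set 3. The Wnt agonist Rspo3 and the Wnt antagonist Sfrp2, at 174 and 154 in fibroblast-like cells of set 2, had 3 and 4 UMIs in luminal-like cells there. Lef1, a transcription factor of the Wnt pathway and 1 of the 10 lower in set 2, turned there with members chosen at 900 UMIs (2.59) and with thinned sums (1.06). Sums under 3 UMIs were set at 3, so that turn is not read as a higher rate. Fzd5, a Wnt receptor, was the gene higher in set 3, at 23.6 against 10.1. The stromal markers given above moved with this list. Without cells that carry them, in either class, 6 of 14 genes were lower and 1 higher in set 2, and 7 of 18 lower and 2 higher in set 3.

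Few cell cycle genes passed the limit. Of 29 measured in set 2, 2 were 2-fold lower (Mcm3 and Mcm6, parts of the replication helicase), beside 11.1% of all genes. Of 31 in set 3, 0 passed in either direction, beside 8.15% of all genes higher and 12.2% lower. The median log2 ratio was -0.32 and -0.31, against -0.12 and -0.01 for all genes. Mki67, a marker of cycling cells, was at 19.1 against 23.8 and at 16.4 against 18.6. Immediate early and stress genes, which respond to dissociation, were 2-fold higher for 2 and lower for 2 of 29 in set 2, and higher for 0 and lower for 1 of 29 in set 3.

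**Figure D2:**
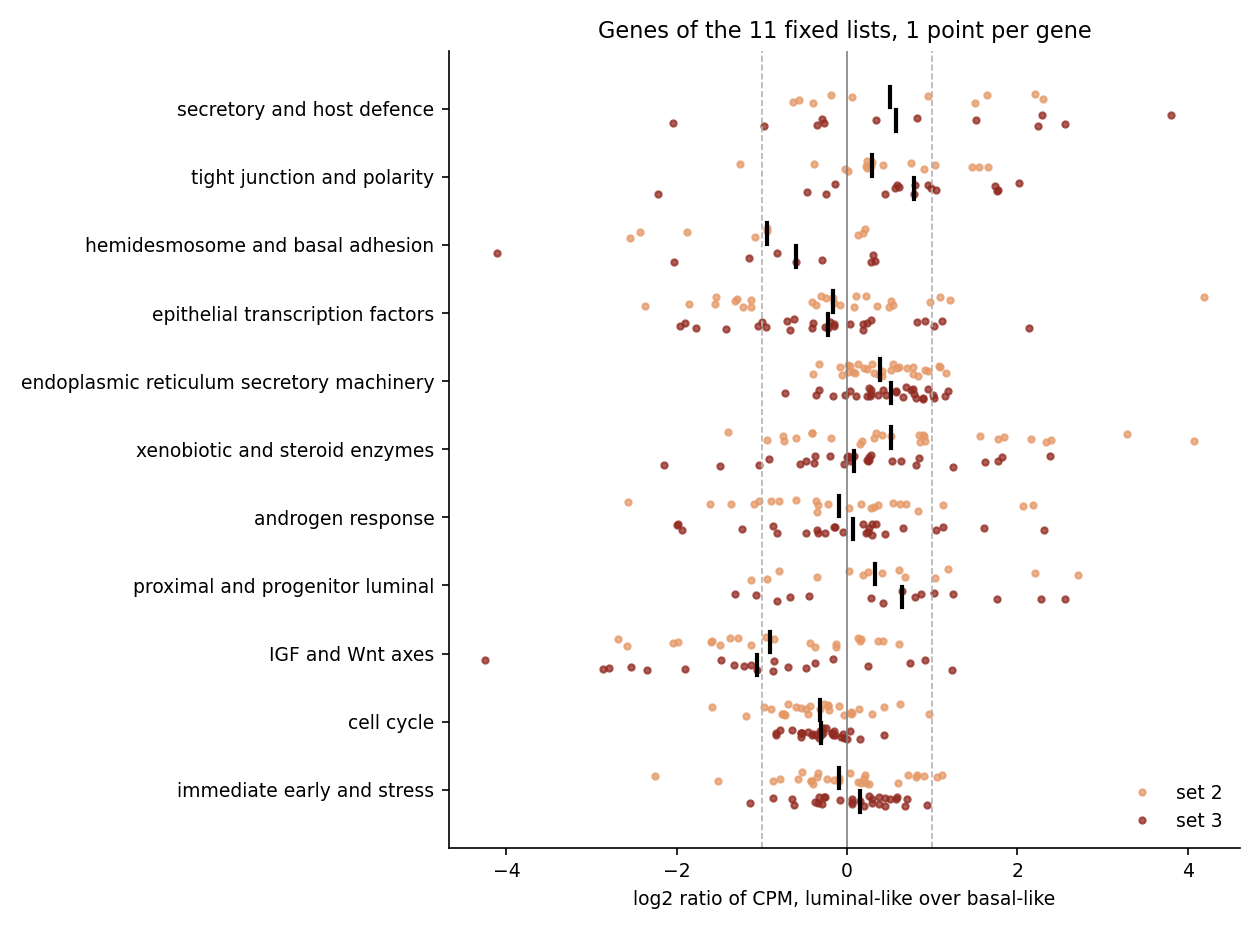
Log2 ratio of summed CPM, luminal-like over basal-like cells, for each measured gene of the 11 lists (x axis) in sets 2 and 3. Black bars are medians and dashed lines mark the 2-fold limit; the medians were 0.39 and 0.51 for the endoplasmic reticulum list and -0.91 and -1.06 for the IGF and Wnt list.

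Against superficial-like cells, the layer that faces the urine, only 25 cells in set 2 and 42 in set 3 could be used. In set 2, 241 of 2287 genes were 2-fold higher in luminal-like cells (10.5%) and 194 lower (8.48%), and in set 3, 464 of 4671 (9.93%) and 282 (6.04%). With sums thinned to 900 UMIs a cell the balance in set 2 turned, to 19 higher and 31 lower, and in set 3 the numbers were 76 and 71. Nupr1 was higher by 5.12 and 1.22 on the log2 scale and Mme by 2.10 and 3.09. Pglyrp1 (-1.95 and -2.91), Aldh1a3 (-1.14 and -1.27) and the siderophore-binding protein Lcn2 (-4.94 and -4.20) were lower. The 5 leukocyte markers summed to 3292 CPM in superficial-like cells of set 2 and 1069 in set 3, against 0 and 49.8 in luminal-like cells, and their part in these ratios was not tested. Against all other cells of the set, 632 of 6507 genes were higher in set 2 (9.71%) and 972 lower (14.9%), and in set 3, 547 of 7165 (7.63%) and 1576 (22.0%). With thinned sums the numbers were 2105 higher and 323 lower in set 2 and 722 and 711 in set 3. Luminal-like sums under 3 UMIs were set at 3 there, which can call a gene of low rate higher without any luminal-like UMI. The thinned numbers are therefore not read as a turn of the balance, and no lean to a side is read from these counts.

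The members of set 3 were not alike. Set 3 was the one set with over 100 members, so the spread among cells was measured there, as the variance of Pearson residuals against a Poisson model in which a gene takes the same share of UMIs in each of the 386 cells. The median over 2596 genes was 1.12, close to the value of 1 for pure counting. Nupr1 had 62.5, Wfdc2 44.6, Wfdc3 20.4, Cyp2f2 20.1 and Prdx6 17.0. The chemokines Cxcl2 (28.3) and Cxcl10 (21.6) and the actin gene Actb (17.5) were also among the first 15.

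For some genes of the 15, 5 cells held much of the UMIs. The 5 cells with most Cd52, a surface protein of lymphocytes and of some epithelia, held 87.1% of its UMIs. For Wfdc15b the share was 78.6%, for Sprr2f 55.5% and for Lcn2 53.8%. Cd52 and Lcn2 went together (r = 0.86 across cells), as did Wfdc15b and Lcn2 (r = 0.88). The contractile genes Tpm2 and Myl9 did as well (r = 0.96), and 44.2% and 44.3% of their UMIs lay in 5 cells each. Cxcl2, with 42.5% of its UMIs in 5 cells, and Cxcl10, with 34.3%, were as uneven or nearly so. Apoe had a residual variance of 24.3 in all cells and 1.68 in the 193 deeper ones.

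The genes present in many members fell into opposed groups. Nupr1, Wfdc2 and Cyp2f2 went together across the 386 cells, with r = 0.77 for Nupr1 and Wfdc2, 0.79 for Wfdc2 and Cyp2f2 and 0.72 for Nupr1 and Cyp2f2. Wfdc3 went with Prdx6 (r = 0.46). Between the groups the correlations were negative, with -0.31 for Nupr1 and Prdx6 and -0.18 for Nupr1 and Wfdc3. All pairs of genes had a median of 0.00281, with 95% of them between -0.115 and 0.134. The cells share 1 library, so these are descriptions. Cells with 3 of the 5 rule genes are bound to lack others, which by itself can set Wfdc3, Cyp2f2 and Cxcl17 against each other, so a split was made with genes outside the rule.

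**Figure D3:**
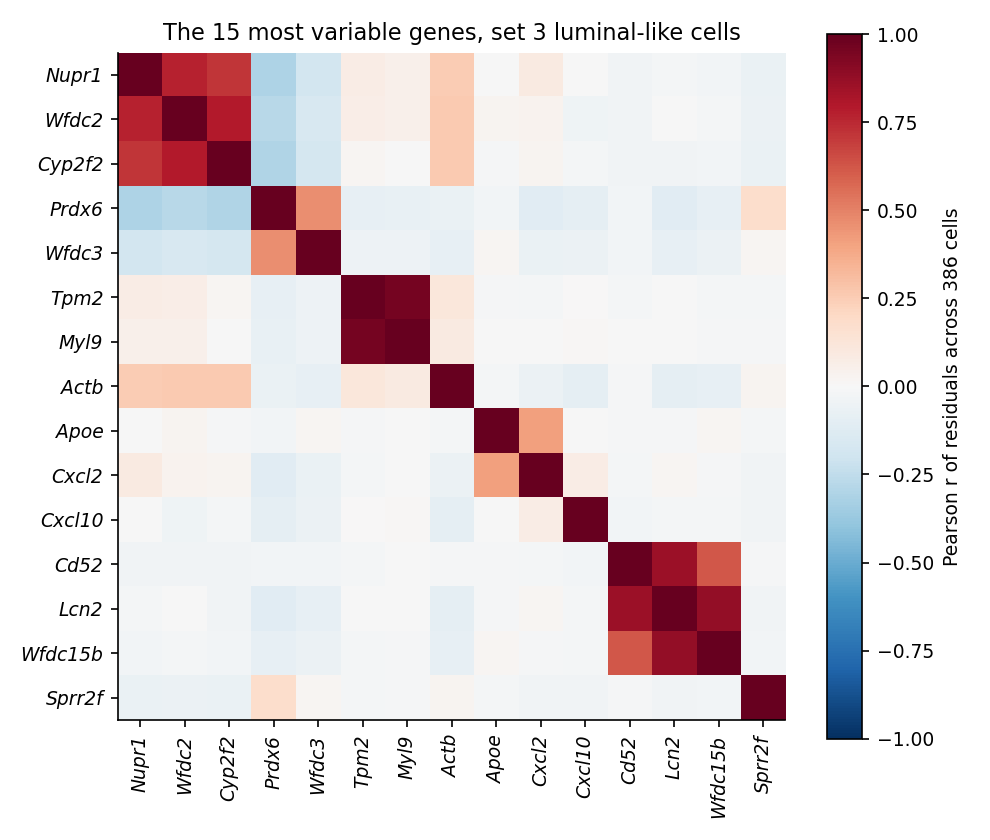
Pearson correlation of residuals across the 386 luminal-like cells of set 3 for the 15 most variable genes, from -1 (blue) to 1 (red), with each gene against itself on the diagonal. Nupr1, Wfdc2 and Cyp2f2 form a block from 0.72 to 0.79, Prdx6 and Wfdc3 stand at 0.46, and Cd52, Lcn2 and Wfdc15b form a further block from 0.62 to 0.88.

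Each member was sorted by whether it had more UMIs of Nupr1 and Wfdc2 or more of Prdx6, a peroxiredoxin, and Defb1. This split was chosen after the spread had been seen. In set 3, 182 cells had more Nupr1 and Wfdc2, here Nupr1/Wfdc2 cells, 196 had more Prdx6 and Defb1, here Prdx6/Defb1 cells, and 8 had equal numbers. Across the members the middle value for Nupr1 and Wfdc2 together was 527 CPM, with quartiles at 0 and 2963, and for Prdx6 and Defb1 together 855, with quartiles at 282 and 2993. Most cells were far to a side, with 112 that held 90% or more of the 4 genes' UMIs as Nupr1 and Wfdc2, 151 that held 10% or less, and 120 between. The median depth was 6116 UMIs in Nupr1/Wfdc2 cells and 11631 in Prdx6/Defb1 cells, and 11008.5 in the cells between. The 112 cells had a median of 4465.5 UMIs and the 151 cells 10967. Few UMIs can by themselves place a cell far to a side, and the part of depth was not tested.

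Nupr1, Wfdc2 and Prdx6 had been picked with their correlations to Cyp2f2 and Wfdc3 in these cells in view, so the values of the rule genes along the split describe it and do not support it. Wfdc3 was at 560 CPM (532 to 589) in Prdx6/Defb1 cells and at 10.8 in Nupr1/Wfdc2 cells, where 17 UMIs lay in 6 of 182 cells. Cyp2f2 was at 824 in Nupr1/Wfdc2 cells and 55.1 (46.6 to 64.7) in Prdx6/Defb1 cells. Cxcl17 was at 364 and 9.62 (6.29 to 14.1). In basal-like cells Cyp2f2 was at 52.1, close to its value in Prdx6/Defb1 cells, and Cxcl17 at 5.85. Cldn3 (512 and 436) and Tspan1 (802 and 649) were high in both sorts of cells.

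The split was also made on cells chosen without Wfdc3, Cyp2f2 and Cxcl17. When cells were taken by Cldn3 and Tspan1 alone, 715 cells of set 3 entered, 277 had more Nupr1 and Wfdc2 and 412 more Prdx6 and Defb1. The log2 ratio of Nupr1/Wfdc2 over Prdx6/Defb1 cells was then -5.53 for Wfdc3 and 3.74 for Cyp2f2, against -5.69 and 3.90 for the members of the rule. A cell with Cldn3, Tspan1 and any of Wfdc3, Cyp2f2 and Cxcl17 already has the 3 genes that the rule asks for. UMIs of Wfdc3 and Cyp2f2 thus came from members or from cells that the basal condition had left out. These ratios are therefore no separate support for the split. With each member of the rule thinned to 900 UMIs before it was sorted, the ratios were -4.75 and 4.06.

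**Figure D4:**
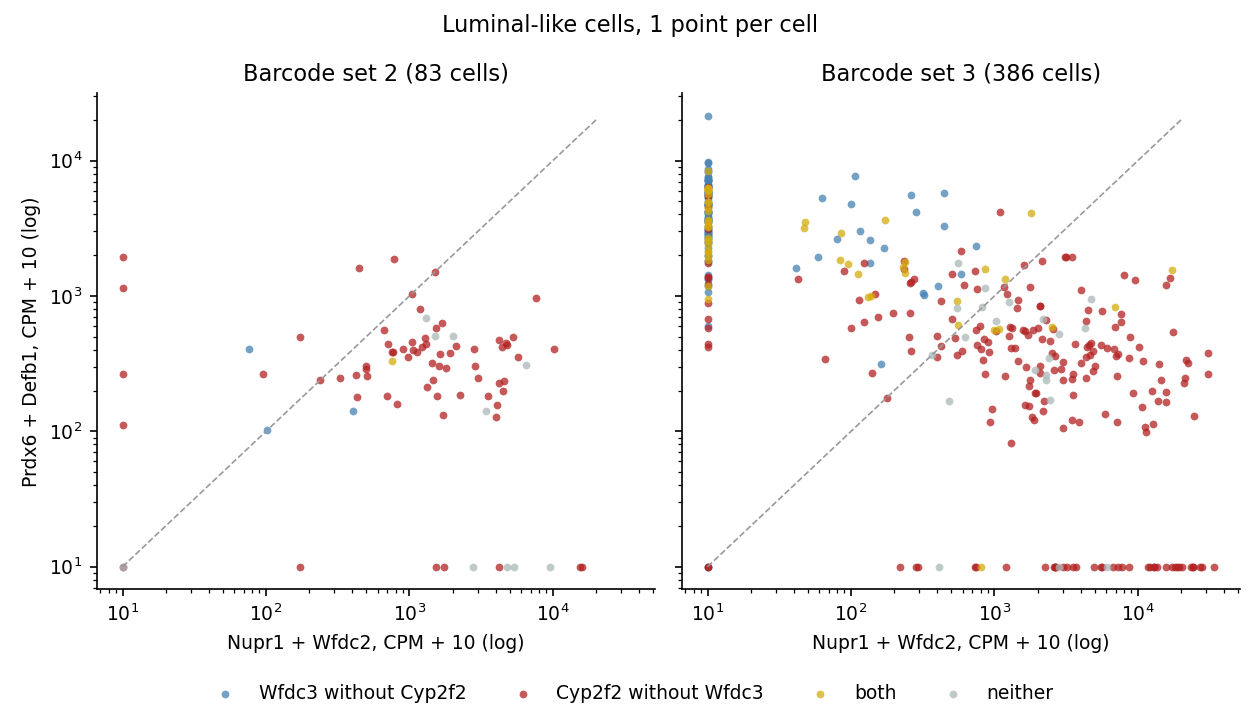
Each point is a luminal-like cell of set 2 or set 3, placed by its CPM of Nupr1 and Wfdc2 (x axis) and of Prdx6 and Defb1 (y axis), with 10 added so that 0 can be drawn on the log axes; the dashed line marks equal values. Colours give the detected rule genes: in set 3 the 107 cells with Wfdc3 without Cyp2f2 lie mostly at the upper left and the 208 cells with Cyp2f2 without Wfdc3 mostly at the lower right.

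Set 2, which had no part in the choice of the split, held 68 Nupr1/Wfdc2 cells, 9 Prdx6/Defb1 cells and 6 with equal numbers. By the same limits of 90% and 10%, 30 of its 83 members lay far to the Nupr1/Wfdc2 side, 4 far to the other and 47 between. The 9 cells had 0 UMIs of Cxcl17, against 150 in the 68, and 12 UMIs of Cyp2f2 (119 CPM), against 140 (231 CPM). They had 1 UMI of Wfdc3 and the 68 had 3, so a difference in Wfdc3 was not detectable there (log2 ratio interval -5.49 to 0.31). Of the 40 genes ranked first on the 2 sides in set 3, which are described further on, 34 had intervals in set 2 that held 0. The other 6 (Mfge8, Igfbp7, Tcaf2, Plac8, Crym and Prr9) stood on the same side as in set 3. By rate alone, of the 30 genes with 4 UMIs or more in set 2, 22 stood on the side of set 3, and Meis2, Gm14137, Tm4sf1, Fabp4, Bmpr1b, Ggct, Ggt1 and Nav3 stood on the other side, with 0 to 10 UMIs in the 9 cells. The 9 cells held 100518 UMIs in all, against 606926 in the 68. How many of all genes kept their side between the sets was not counted. The numbers above therefore have no background and are not read as support for the split.

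The sequences upstream of 4 genes are shown because they stand on the opposed sides of the split, and because Wfdc2 and Wfdc3 lie in the same cluster of WAP genes and yet fell on opposite sides. In GRCm38.p6 Wfdc2 spans chr2:164562715-164568510, Wfdc3 chr2:164731226-164745994, Nupr1 chr7:126623246-126625470 and Cyp2f2 chr7:27119955-27133660. Each sequence is the 250 bases before the first listed RefSeq start, 5′ to 3′ on the strand of the gene, and that of Wfdc3 lies within the gene's annotated span. Capitals mark matches on either strand to the TATA letters TATAA, to the androgen receptor half-site AGAACA, to the forkhead core TGTTTA, to the ETS core GGAAG, to the GC box GGGCGG or to the E-box CACGTG. Wfdc2 (chr2:164562465-164562714, plus strand), Nupr1 (chr7:126625471-126625720, minus strand) and Cyp2f2 (chr7:27119705-27119954, plus strand) are from the Nupr1/Wfdc2 side, and Wfdc3 (chr2:164743268-164743517, minus strand) from the other.
Wfdc2: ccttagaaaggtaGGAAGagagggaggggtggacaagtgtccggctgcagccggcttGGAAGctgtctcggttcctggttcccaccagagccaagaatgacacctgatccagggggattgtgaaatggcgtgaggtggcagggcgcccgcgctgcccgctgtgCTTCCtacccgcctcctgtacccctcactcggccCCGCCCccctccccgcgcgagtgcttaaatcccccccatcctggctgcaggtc
Nupr1: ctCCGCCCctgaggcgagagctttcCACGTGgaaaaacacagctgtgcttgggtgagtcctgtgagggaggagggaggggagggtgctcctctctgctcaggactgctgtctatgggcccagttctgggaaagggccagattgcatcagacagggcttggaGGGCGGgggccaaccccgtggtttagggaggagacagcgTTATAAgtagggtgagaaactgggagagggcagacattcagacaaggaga
Cyp2f2: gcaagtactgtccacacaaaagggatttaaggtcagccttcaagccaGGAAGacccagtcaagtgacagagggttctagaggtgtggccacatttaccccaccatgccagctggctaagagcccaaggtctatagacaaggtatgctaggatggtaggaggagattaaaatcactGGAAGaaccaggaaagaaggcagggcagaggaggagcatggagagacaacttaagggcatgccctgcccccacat
Wfdc3: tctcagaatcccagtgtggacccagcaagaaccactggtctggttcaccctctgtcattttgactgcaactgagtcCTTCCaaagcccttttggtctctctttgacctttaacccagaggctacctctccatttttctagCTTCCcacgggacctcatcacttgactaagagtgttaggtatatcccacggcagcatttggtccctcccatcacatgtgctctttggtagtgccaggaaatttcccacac

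The ETS core letters occurred 3 times in the window of Wfdc2, 2 times in that of Cyp2f2 and 2 times in that of Wfdc3, and they are common, with a match in 63.6% of the windows of 27025 genes. The GC box had 1 match at Wfdc2 and 2 at Nupr1, against 32.9% of windows with at least 1. Nupr1 also held an E-box (6.05% of windows) and overlapping TATAA matches on both strands (23.5%). The androgen receptor half-site (16.2%) and the forkhead core (12%) had no match in the 4 windows, which says only that these letters are not there. No letters searched set the Wfdc3 window apart from the other 3.

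Genes were then compared between the sorted cells, as a description of cells sorted on the same data. Beyond the rule genes and the 4 genes of the split, 340 of 4436 genes were 2-fold higher in Nupr1/Wfdc2 cells (7.66%) and 191 in Prdx6/Defb1 cells (4.31%). Of the 8 measured genes of the secretion and host defence list, 4 were higher in Nupr1/Wfdc2 cells (Pigr, Reg3g, S100a11 and Car2) and 1 in Prdx6/Defb1 cells (Cst3), with Wfdc2 and Defb1 left out as genes of the split. Pigr was at 163 CPM against 39.2. The genes ranked highest in Nupr1/Wfdc2 cells included the following. Cxcl15, a lung and gland chemokine, was at 285 CPM against 14.1, and had a UMI in 129 of 182 cells against 25 of 196. Reg3g was at 138 against 7.4, and Cxcl5, which draws neutrophils, at 38.2 against 1.11. Ifi202b, an interferon-inducible gene with near-identical copies, was at 71.4 against 1.85. Qsox1, which forms disulfide bonds in secreted proteins, was at 382 against 60.3.

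The proximal and progenitor list and the list of xenobiotic and steroid enzymes were compared as well. Of 13 genes of the first list that were measured, 4 were higher in Nupr1/Wfdc2 cells (Kcnn4, Aldh1a3, Cd44, Tspan8) and 1 in Prdx6/Defb1 cells (Lgr5). Aldh1a3 was at 168 against 60.0, Cd44, the hyaluronan receptor, at 605 against 224, and Tspan8 at 353 against 136. Of 27 xenobiotic and steroid enzymes 10 were higher in Nupr1/Wfdc2 cells, among them Mgst1 at 372 against 125, and 1, Akr1b3, was higher in Prdx6/Defb1 cells. Meis2, a homeobox factor, was at 82.9 against 4.07 here, but at 3 UMIs in the 68 cells and 1 in the 9 of set 2. Of the IGF and Wnt list 4 of 11 genes were higher here and 0 in the other cells, with Igfbp5 at 63.1 against 6.29 and Igfbp7 at 161 against 25.9. Basal-like cells had 188 for Igfbp5 and 158 for Igfbp7, so the rates in Nupr1/Wfdc2 cells were below or near those of basal-like cells. Mfge8, at 197 against 28.1, was likewise near its basal-like rate of 186. The ratios of the other genes of rank 20 or better in this direction lay between 2.58 and 4.57 on the log2 scale.

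The genes ranked highest in Prdx6/Defb1 cells were the following, among others. Akr1b3, an aldose reductase, was at 403 against 69.5, and Fabp5, which carries fatty acids, at 462 in Prdx6/Defb1 cells against 97.5. Crym was at 60.7 against 6.37 and Suox, the sulfite oxidase, at 44.8 against 3.82. Slc30a2, a zinc exporter of secretory vesicles, had 66 UMIs against 0. Tcaf2, which regulates a cation channel, was at 380 against 37.6, Plac8 at 314 against 44.0, and Prr9 at 849 against 203. The growth factor gene Bmp7 (37.4 against 5.10) and the BMP receptor gene Bmpr1b (31.5 against 3.82) were both on this side, although Bmpr1b had 7 UMIs in the 68 Nupr1/Wfdc2 cells of set 2 and 0 in the 9 others. In basal-like cells Fabp5 was at 500, above its rate in both sorts of cells. Prr9 was at 497 there, above its rate in Nupr1/Wfdc2 cells and below that in Prdx6/Defb1 cells.

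The endoplasmic reticulum list had a higher sum in Prdx6/Defb1 cells. Its 30 genes summed to 8457 CPM there and to 5489 in Nupr1/Wfdc2 cells, the latter close to the 5121 of basal-like cells of set 3. Of them 2, Ssr4 (1139 against 559) and Spcs3, a signal peptidase subunit (64.4 against 25.5), were 2-fold higher. This stands beside 4.31% of all genes, with 0 in the other direction. The list's median log2 ratio was -0.53, against 0.04 for all genes. The 5 basal rule genes, which had a part in choosing the cells, summed to 1327 in Nupr1/Wfdc2 cells and to 650 in Prdx6/Defb1 cells, a gap carried by Sfn, at 1052 against 357 and below the 3918 of basal-like cells. Dst was at 187 against 193, Serpinb5 at 42.7 against 72.5 and Lgals7 at 41.4 against 25.5. Of 8 genes measured on the hemidesmosome and basal adhesion list, 3 were higher in Nupr1/Wfdc2 cells (Cd44, Itgb6 and Fermt1) and 0 in Prdx6/Defb1 cells. That list summed to 1616 against 801, with a median log2 ratio of 0.93. Of the 22 genes measured on the androgen response list, 1 was higher in Nupr1/Wfdc2 cells (Pmepa1) and 2 in Prdx6/Defb1 cells (Insig1 and Mme, the latter at 217 against 105). Cell cycle genes did not divide, with 0 of 25 past 2-fold.

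Markers of other cells were compared along the split. The 5 fibroblast markers summed to 170 CPM in Nupr1/Wfdc2 and 167 in Prdx6/Defb1 cells, and the 4 smooth muscle markers to 294 and 174. The 3 macrophage markers were at 21.7 and 0.370, and 1 of the 386 members held all 3. The 6 superficial rule genes stood at 24.9 and 203, and the 5 leukocyte markers at 10.2 and 73.7, of which Cd52 alone made up 73.7. Sprr2f, at 1.91 and 92.9, carried much of the superficial sum. Immediate early and stress genes, which respond to dissociation, moved with the split as well. Of 28 measured, 5 were 2-fold higher in Nupr1/Wfdc2 cells (Fosb, Egr2, Ctgf, Gadd45b and Txnip) and 0 in Prdx6/Defb1 cells, the list summed to 12544 and 10396 CPM, and its median log2 ratio was 0.29 against 0.04 for all genes. Fosb was at 482 against 222 and Ctgf at 98.2 against 17.8. The part of all these in the split was not tested. Without the cells that carry stromal markers 170 and 182 cells were sorted.

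**Figure D5:**
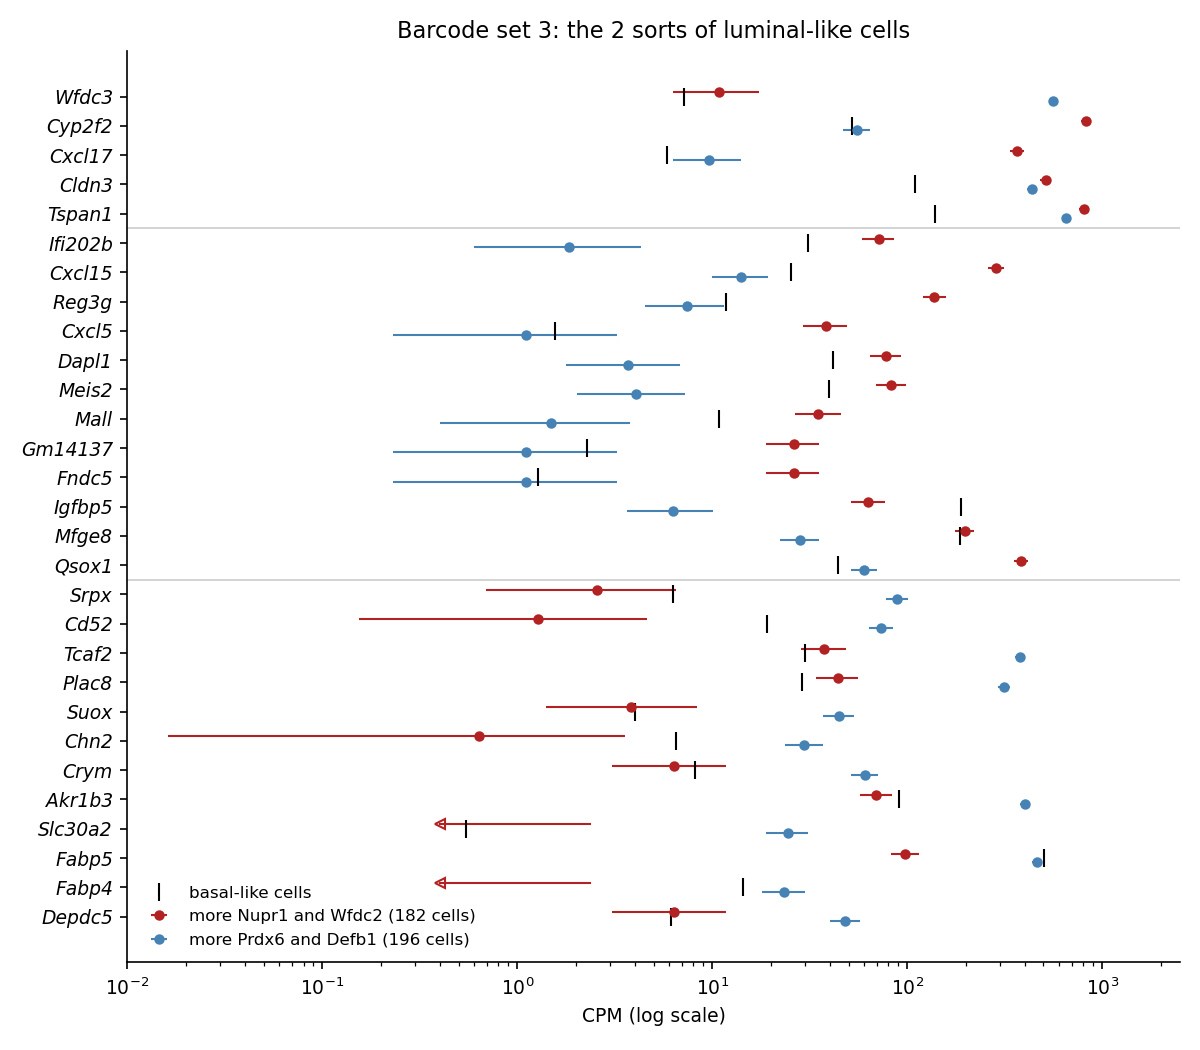
Summed CPM (log axis) in set 3 of the rule genes (top), of the first 12 genes higher in Nupr1/Wfdc2 cells (middle) and of the first 12 higher in Prdx6/Defb1 cells (bottom), with 95% exact Poisson intervals; open triangles mark 0 and black ticks the basal-like cells. Cldn3 and Tspan1 were high in both sorts of cells, while Wfdc3 stood at 10.8 against 560 and Cxcl17 at 364 against 9.62.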

How the data were processed

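Single cell RNA-seq libraries of male UGS at E18.5 and of prostate at P14 and P35, 1 per age, were read from a single table of 9784 gene rows and 14573 cells. Per the study's methods, the authors aligned reads with Cell Ranger 3.1.0 to mm10 with transgene sequences added, and filtered empty droplets, multiplets and cells with high mitochondrial content, so no doublet caller was run here. The deposited values are natural log values, the natural log of 1 plus UMIs per 10000 UMIs of the cell, and not raw counts. UMIs and cell totals were recovered from them, and all 11121287 values above 0 came out whole (largest distance 9.40e-07, tolerance 0.05). Of the rows, 1 that was partly empty and 2 with a repeated date-like name were dropped, which left 9781. The rows cover part of the genome, so genes without a row were not analysed here. Set 3 held 97 cells under 200 genes, which were kept. The number of cells the study gives for 1 age equals that of set 1, and those for the other ages equal neither other set.

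The members and lists were chosen with earlier results of these data known. UMIs were summed over the cells of a class and given as CPM (scaled to 1000000 UMIs), with exact Poisson intervals, and ratios with intervals from a binomial split, in Python 3.11.15 with NumPy 2.4.6, SciPy 1.17.1, pandas 2.3.3 and Matplotlib 3.10.9. Intervals (95%) cover counting error only. No test was made, since a set is 1 library. The 16 rule genes were left out of all gene counts. Genes were named when they belonged to the rule, had 20 UMIs or more and a place in a list, or ranked in the first 20 each way against basal-like cells, the first 15 by spread or the first 20 by rate. The sorted cells and their genes, Upk1a, Sprr1a, Cdh3, Lyz2, Igf1, Rspo3, Tcf7l1 and Hey1 were named after their values had been seen. A gene among the lowest against basal-like cells is not reported here. Alternatives changed the rule, the depth, the fold limit and the least number of UMIs. Methods were tested on simulated data. RefSeq promoters (GRCm38.p6) were searched on both strands. Columns of the table that belong to no sample here numbered 0.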

Additional observations from a re-analysis of the deposited data

Results flagged for a closer look

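EGFP, a row for the fluorescent reporter, had 15 UMIs in the 3 cells of set 1 that met the rule. The markers of these cells went in part against the luminal label. EGFP had a UMI in 3 of 3 of them, a rate of 91.5 CPM (51.2 to 151). It entered no comparison of the report and stood above the limit that a count of 0 allows. In set 2 it was seen in 0 of 83 luminal-like cells, which allows a share of cells with a UMI of up to 4.35% (exact upper limit; 3.61% by a floor of 3 counts), and in set 3 in 0 of 386, which allows up to 0.951% (0.777% by that floor). Basal-like cells of set 1 were at 47.2 for EGFP and fibroblast-like cells at 1126.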

How the results depend on the processing

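No paired analysis was possible because each age has 1 library and no test was made. Of 2065 values under alternatives for 318 results, 1567 were called the same, 480 moved further and 18 turned direction. A value was the same if it moved by less than its counting error or 1.5 times. Differences of mean deposited values for the 131 single gene ratios were compared by direction only. A turn was called only where the single gene ratio had been at least 2-fold. Depth limits the values that rest on few UMIs. The share of luminal-like cells in sets 1, 2 and 3 was 1.44%, 2.97% and 6.99% with 2 luminal genes or more, 0, 0.654% and 2.14% with 4 or more, and 0, 0.240% and 0.991% when members were chosen at 900 UMIs. Without the basal condition it was 2.71% and 6.10% in sets 2 and 3, with cells of 500 genes or more 2.77% and 9.22%, and with unlogged means 4.01% in set 3.

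Against basal-like cells, 4-fold limits gave 69 genes higher and 116 lower in set 2, and 76 and 339 in set 3. Sums thinned to 900 UMIs gave 175, 225, 316 and 427 in the same order. Members chosen at 900 UMIs gave 208 and 185 in set 2 and 444 lower in set 3, and 257 were higher in set 2 without the basal condition. With 10 UMIs as the minimum 938 were higher in set 2, and with no minimum 2735 in set 2 and 1754 in set 3. Against superficial-like cells, 4-fold limits gave 42 and 49 in set 2 and 49 and 67 in set 3, and thinned sums 19, 31, 76 and 71. Lower genes there numbered 480 and 594 with a minimum of 10 UMIs and 2990 and 2752 with none. Sums under 3 UMIs were set at 3 throughout, and the classes have unequal totals. With a low minimum or none, a gene with few UMIs can therefore be called by that floor alone. The same holds for thinned sums against all other cells. Against all other cells, 4-fold limits gave 102 and 317 in set 2 and 73 and 802 in set 3, thinned sums 2105 and 323 in set 2 and 722 and 711 in set 3, a minimum of 10 UMIs 1693 higher in set 2, and no minimum 2740 and 1525 higher.

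The summed rate of the secretory list in set 2 was 3488 as reported, 3346 with 2 luminal genes, 3738 with 4, 3652 without the basal condition and 3871 with members chosen at 900 UMIs. In set 3 it was 4051 as reported, 4414 with 4, 3724 without the basal condition, 4134 with fewer than 2 superficial genes and 6296 at 900 UMIs.

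The share of Nupr1/Wfdc2 cells in set 3 was 40.8% at 900 UMIs, 38.9% with 3 times as many UMIs required, 38.7% with members by Cldn3 and Tspan1, 40.3% with 2 luminal genes, 68.5% with 4, and 41.5% with Wfdc2 against Defb1. The log2 ratio of Wfdc3 was -4.75 at 900 UMIs, -6.85 with 3 times as many, -4.89 with 4 luminal genes and -6.48 with Wfdc2 against Defb1, and that of Cyp2f2 4.62 with 3 times as many, 4.17 with 2 luminal genes, 3.53 with 4 and 4.16 with Wfdc2 against Defb1. These alternatives of the split were chosen after seeing the data.

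Log2 ratios that turned direction against basal-like cells had few UMIs left, with sums under 3 set at 3, and mark no higher rate. With members chosen at 900 UMIs these were Hbb-bs (3.81 in set 2 and 1.85 in set 3) and, in set 2, Wif1 (1.07), Moxd1 (0.14), Gm13889 (0.69), Fbln2 (0.53), Sox2 (1.22), Lef1 (2.59) and Cdh3 (1.22). With thinned sums in set 2 they were Hbb-bs (0.33), Wif1 (0.77), Moxd1 (0.53), Fbln2 (0.23), Sprr2a3 (0.15), Sox2 (1.33), Lef1 (1.06) and Cdh3 (0.99). Without cells that carry stromal markers Hbb-bs was at 0.69 in set 2.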
